A study of Mus musculus with 8 samples.

Results

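The Wnt genes of mouse were followed here in stem cells and in the embryoid bodies made from them: the Wnt ligands themselves, their Frizzled receptors, and the secreted proteins that hold the ligands back or strengthen them. The members were chosen by gene symbol alone, as every measured gene named Wnt, Fzd (Frizzled), Sfrp (secreted Frizzled-related protein), Dkk (Dickkopf) or Rspo (R-spondin) followed by its number. This gave 41 of the 18194 genes on the array, namely 19 Wnt ligands, 10 Frizzled receptors, 4 Sfrp, 4 Dkk and 4 Rspo genes. All 41 matched a RefSeq mouse gene under the same symbol.

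The series comes from work on heart tissue engineered from parthenogenetic cells and holds 8 Affymetrix arrays of total RNA. EB_PSC (2 arrays) are embryoid bodies, which are free-floating aggregates in which stem cells differentiate into a mixture of cell types. They were made from parthenogenetic stem cells of strain C57BL/6 and kept in culture for 15 days. PSC (3 arrays) are the undifferentiated parthenogenetic stem cells, also C57BL/6. They came from blastocysts that developed out of oocytes activated with strontium chloride, were taken at day 6, and carry maternal genomes only, as do the embryoid bodies made from them. ESC (3 arrays) are cells of the embryonic stem cell line R1, a line derived from fertilised embryos, which grew on mouse embryonic fibroblasts (feeder cells) in medium with leukemia inhibitory factor. The strain is named only for EB_PSC and PSC, and feeders are named only for ESC. The number of PSC lines behind the arrays is not given in the sources used here. Separate cultures are not stated for the arrays within a group. The p-values therefore set each group difference against variation among these arrays that may be technical in origin.

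Wnt ligands are lipid-modified secreted proteins that bind Frizzled receptors together with a co-receptor. In the canonical branch, binding to Frizzled and the co-receptors Lrp5 or Lrp6 stabilises beta-catenin, which enters the nucleus and acts with TCF/LEF factors on target genes. Other ligands, Wnt5a above all, act largely without beta-catenin, through the receptors Ror1, Ror2 and Ryk and through planar cell polarity proteins. Sfrp proteins bind Wnt ligands outside the cell, Dkk proteins mostly block the Lrp co-receptors, and R-spondins raise receptor levels by removing the ubiquitin ligases Znrf3 and Rnf43. In the mouse embryo canonical Wnt signals form the primitive streak and first promote and later restrain heart muscle formation, and in stem cell culture they favour the undifferentiated state.

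All values are deposited log2 RMA values, on which a step of 1 is a doubling. Over all arrays and probe sets their median was 5.44, and a level below it is called dim here. RMA compresses differences of dim probe sets. Sizes of called differences are therefore written as bounds ("at least"), without a fold, if either group averaged below 5.44. Such a bound refers to compression only: the estimate keeps its standard error, and the difference can be smaller within it. Differences of further probe sets, of averaged probe sets and in fits with an array left out are printed as fitted, and where a group is dim these too are lower bounds. Differences are given with their standard error from limma, and a gene is called higher or lower at a Benjamini-Hochberg adjusted p under 0.05 over all 18194 genes. Each gene is represented by its probe set of highest mean, and levels of different genes are not set against each other. Of the 41 members 28 reached 5.44 on average in at least 1 group, and 13 were dim in all groups. The dim ones were 9 of 19 Wnt ligands, 2 of 4 Dkk and 2 of 4 Rspo genes, against 0 of 10 Frizzled and 0 of 4 Sfrp genes.

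The arrays resembled each other within groups. Across probe sets, taken only as a description because they are not independent, Pearson's r was 0.992 between the EB_PSC arrays, 0.994 to 0.995 between PSC arrays and 0.991 to 0.995 between ESC arrays. It was 0.934 to 0.943 between EB_PSC and PSC and 0.978 to 0.986 between PSC and ESC. The labelled cell states showed in their marker genes. All 10 pluripotency markers were called lower in EB_PSC than in PSC, with mean marker levels of 9.50 to 9.63 on EB_PSC arrays and 11.6 to 11.8 on PSC arrays. Embryoid bodies were called higher than PSC for 9 of 10 cardiomyocyte, 8 of 10 fibroblast, 7 of 8 endothelial and 7 of 7 measured blood markers. The same held for 6 of 9 measured visceral endoderm, 4 of 7 smooth muscle and epicardium, and 3 of 8 neural markers. Called lower were 1 fibroblast, 1 endothelial, 1 visceral endoderm, 1 smooth muscle and epicardium, and 2 neural markers. Of all genes 18.8% were called higher and 25.2% lower. Mean neural marker levels were 6.035 to 6.07 on EB_PSC arrays and 5.85 to 5.99 on PSC arrays. In bulk RNA, fewer cells of a type and less RNA per cell cannot be told apart. Most markers of these cell types, other than the neural ones, were thus higher on the same EB_PSC arrays that gave the differences from PSC below, rises and falls alike. Against ESC most were called higher too, except that smooth muscle and epicardium had 3 of 7 higher and 1 lower. The part of any of these cell types in those differences was not tested. The difference between 3' and 5' control probe sets of Actb, a sign of RNA quality, was 1.09 to 1.17 log2 units in EB_PSC, 1.04 to 1.54 in PSC and 0.69 to 1.13 in ESC. For the Gapdh controls it was -0.09 to -0.06 in EB_PSC, -0.06 to 0.002 in PSC and 0.08 to 0.17 in ESC.

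**Figure D1:**
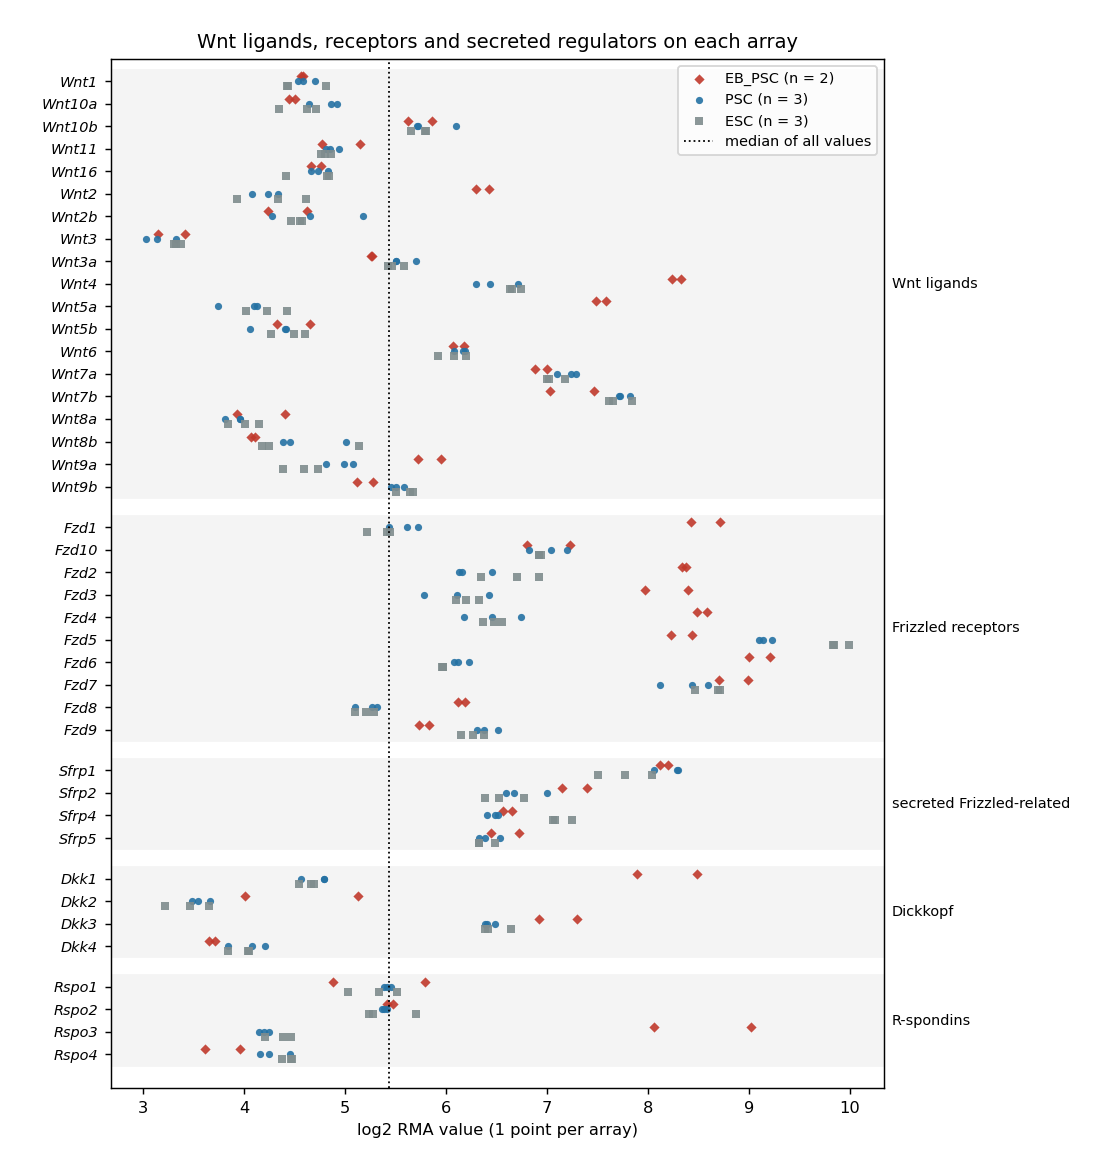
Level of each of the 41 Wnt pathway genes on every array (log2 RMA value, 1 point per array), grouped by class, with EB_PSC as diamonds, PSC as circles, ESC as squares, and the median of all values (5.44) as a dotted line. The EB_PSC diamonds lie far to the right of the others for Rspo3, Wnt5a, Dkk1, Fzd1 and Fzd6, while PSC and ESC lie close together for most genes.

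Comparing embryoid bodies with undifferentiated parthenogenetic stem cells shows which Wnt genes differed in RNA level in the differentiated mixture. Activity of the pathway was not measured. Receptors and a few ligands and secreted regulators were higher, and most ligands, like most of all genes, did not pass the test. Of the 41 members 16 were called higher in EB_PSC than in PSC (39.0%, where 18.8% of all genes were), 5 were called lower (12.2%, where 25.2% of all genes were), and 20 did not pass the test. In either direction 51.2% of members and 43.9% of all genes were called. The share called higher was thus above that of all genes and the share called lower was below it. Their median difference was 0.12, beside -0.09 over all genes. The arrays of both groups did not overlap for 27 members (65.9%, beside 62.8% of all genes), with EB_PSC above in 17 (all genes 25.1%) and below in 10 (all genes 37.8%). Over all genes the split of calls depends on the scaling: 3417 were called higher and 4578 lower on the deposited values, and 4185 higher and 3566 lower after cyclic loess.

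Of the members that rose by at least 2 log2 units, the RefSeq promoter table held Dkk1, Wnt2, Fzd1 and Fzd4. Their 250 bases before the annotated start are shown. These genes were picked by the size of the rise and by having a window, and shared regulation was not tested. The windows are from GRCm38.p6, at chr19:30549497-30549746 for Dkk1, chr6:18030446-18030695 for Wnt2 and chr5:4758217-4758466 for Fzd1, all on the minus strand, and at chr7:89404116-89404365 on the plus strand for Fzd4. They are written 5′ to 3′ on the gene's strand, and capitals mark the core letters of the TCF/LEF motif, CTTTGA or, on the other strand, TCAAAG.
Dkk1: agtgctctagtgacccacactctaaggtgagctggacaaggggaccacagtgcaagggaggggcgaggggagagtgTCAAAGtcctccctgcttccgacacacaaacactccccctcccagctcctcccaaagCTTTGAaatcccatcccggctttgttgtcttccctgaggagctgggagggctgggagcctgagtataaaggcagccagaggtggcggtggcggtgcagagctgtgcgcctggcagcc
Wnt2: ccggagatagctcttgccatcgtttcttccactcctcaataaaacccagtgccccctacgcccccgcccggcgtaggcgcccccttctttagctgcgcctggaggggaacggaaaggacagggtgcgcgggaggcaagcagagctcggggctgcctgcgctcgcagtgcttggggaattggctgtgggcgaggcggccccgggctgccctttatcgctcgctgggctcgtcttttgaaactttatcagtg
Fzd1: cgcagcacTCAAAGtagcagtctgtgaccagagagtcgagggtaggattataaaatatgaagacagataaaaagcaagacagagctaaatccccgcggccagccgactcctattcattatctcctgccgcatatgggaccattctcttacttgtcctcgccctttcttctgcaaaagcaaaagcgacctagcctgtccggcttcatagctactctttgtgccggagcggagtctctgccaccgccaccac
Fzd4: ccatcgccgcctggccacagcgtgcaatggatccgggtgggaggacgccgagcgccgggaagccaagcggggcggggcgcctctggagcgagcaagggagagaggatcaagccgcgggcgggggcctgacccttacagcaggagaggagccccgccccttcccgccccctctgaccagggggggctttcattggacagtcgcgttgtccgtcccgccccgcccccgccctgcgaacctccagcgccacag

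The Dkk1 window held the motif letters at 2 places, beginning 174 and 117 bases before the start, and the Fzd1 window at 1 place, beginning 242 bases before it. The windows of Wnt2 and Fzd4 did not hold these letters. Of all 32851 promoter windows of the same length 4544 held them (13.8%), and of the 30 windows of 27 matched members 4 did, those of Dkk1, Fzd1, Wnt11 and Wnt5b. Of these 4 genes Dkk1 and Fzd1 were called higher in EB_PSC, and Wnt11 and Wnt5b did not pass the test. The member windows were rich in G and C, with a median of 68.8% against 52.4% over all windows. A match of letters describes the window and is not evidence of a bound site.

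Among the ligands, Wnt5a, Wnt2, Wnt4 and Wnt9a were called higher in embryoid bodies (21.1%, all genes 18.8%). Wnt7b was called lower (5.26%, all genes 25.2%), and 14 of 19 did not pass the test. The share of ligands called higher was near that of all genes. The median difference of the 19 ligands was -0.03. Wnt5a, the best known ligand of the beta-catenin-independent branch and a driver of limb and body axis outgrowth, had levels of 7.48 and 7.58 in EB_PSC, against 4.12, 3.74 and 4.10 in PSC. Both embryoid body arrays lay far above the dim limit and all PSC arrays below it, a difference of at least 3.54 ± 0.16 (limma adjusted p = 7.67e-10). Wnt2, which is needed for the placenta and lung of the mouse, was at 6.42 and 6.29 in EB_PSC and at 4.08, 4.34 and 4.23 in PSC. Its groups were also separated by the dim limit, by at least 2.14 ± 0.18 (limma adjusted p = 3.97e-07).

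Wnt4, required for kidney tubules and the female reproductive tract, was above the dim limit in both states and higher on each embryoid body array. It measured 8.33 and 8.24 in EB_PSC and 6.29, 6.71 and 6.43 in PSC, a difference of 1.80 ± 0.14 or 3.49-fold (limma adjusted p = 2.1e-07). Wnt9a, a ligand of forming joints, was at 5.72 and 5.95 in EB_PSC and at 5.07, 4.99 and 4.81 in PSC, a difference of at least 0.88 ± 0.14 (limma adjusted p = 0.000215). Wnt7b, a ligand of lung and placenta, went the other way, with 7.03 and 7.47 in EB_PSC against 7.82, 7.72 and 7.71 in PSC. The arrays did not overlap, with Wnt7b 1.41-fold lower in EB_PSC (-0.50 ± 0.15, limma adjusted p = 0.0131). Without EB_PSC replicate 1 the Wnt7b difference was -0.28 (adjusted p = 0.206) and after cyclic loess -0.34 (adjusted p = 0.0829).

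The ligands of gastrulation did not pass the test. Wnt3, which starts the primitive streak, was at 3.41 and 3.15 in EB_PSC and at 3.02, 3.32 and 3.13 in PSC, below the dim limit on every array. Wnt3a, which maintains the growing tail end of the axis, was at 5.27 and 5.25 in EB_PSC and at 5.70, 5.50 and 5.50 in PSC (-0.31 ± 0.12, limma adjusted p = 0.0627). Its arrays did not overlap, and the difference passed the test under 2 alternatives, with arrays quantile normalized again (adjusted p = 0.0481) and with the mean of all probe sets of each gene (adjusted p = 0.0331). Wnt8a, also active in the primitive streak, was dim in both states, at 3.92 and 4.41 in EB_PSC and 3.95, 3.96 and 3.81 in PSC.

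Wnt11, Wnt5b and Wnt6 overlapped between the groups. Wnt11, a ligand of the noncanonical branch with a role in heart formation, was at 4.77 and 5.15 in EB_PSC and 4.81, 4.94 and 4.85 in PSC. Wnt5b, the closest relative of Wnt5a, was at 4.33 and 4.65 in EB_PSC and at 4.41, 4.40 and 4.05 in PSC on the probe set used. Wnt6, an epithelial ligand, stood above the dim limit without a difference that passed the test, at 6.17 and 6.06 in EB_PSC and 6.17, 6.07 and 6.18 in PSC, with a 95% interval of the difference of -0.30 to 0.25. Over the 14 ligands that did not pass, differences ran from -0.53 (Wnt8b) to 0.26 (Wnt8a).

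Several Wnt genes are direct neighbours in the mouse genome. In RefSeq order the members held 4 pairs of adjacent protein-coding genes, Wnt6 with Wnt10a on chromosome 1, Wnt3a with Wnt9a and Wnt9b with Wnt3 on chromosome 11, and Wnt10b with Wnt1 on chromosome 15. Among these 8 genes only Wnt9a was called between EB_PSC and PSC, where 43.9% of all genes were. Its neighbour Wnt3a had a difference of -0.31, opposite in sign to the 0.88 of Wnt9a.

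Of the Frizzled receptors 90% were called, beside 43.9% of all genes. Of 10 receptors 7 were called higher in embryoid bodies, 2 (Fzd5 and Fzd9) were called lower and only Fzd10 did not pass the test. The median difference of the class was 1.499. Fzd1, which pairs with many canonical ligands, was at 8.72 and 8.43 in EB_PSC and at 5.61, 5.43 and 5.72 in PSC, which is 7.91-fold higher (2.98 ± 0.14, limma adjusted p = 1.75e-09). Fzd6, a receptor of the planar polarity system that orients hairs in the skin, was at 8.997 and 9.21 in EB_PSC and at 6.23, 6.12 and 6.08 in PSC, 7.79-fold higher (2.96 ± 0.12, limma adjusted p = 4.74e-10). For both receptors the gap between the groups was many times the spread within them.

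Fzd2, Fzd3 and Fzd4 rose by similar amounts. Fzd2, a close relative of Fzd1 and Fzd7, was at 8.38 and 8.34 in EB_PSC against 6.12, 6.46 and 6.16 in PSC (2.11 ± 0.17, 4.32-fold, limma adjusted p = 2.64e-07). Fzd3, which guides axons in the mouse brain together with planar polarity proteins, was at 7.97 and 8.39 in EB_PSC against 6.42, 6.10 and 5.78 in PSC (2.08 ± 0.18, 4.23-fold, limma adjusted p = 7.24e-07). Fzd4, the receptor of the non-Wnt ligand norrin in retinal vessels, was at 8.58 and 8.49 in EB_PSC against 6.74, 6.17 and 6.45 in PSC (2.08 ± 0.16, 4.22-fold, limma adjusted p = 1.67e-07). None of these array groups overlapped. The receptor Fzd8, at 6.18 and 6.12 in EB_PSC, was below the dim limit in PSC (at least 0.92 ± 0.13, limma adjusted p = 4.46e-05).

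Fzd7, a receptor long linked to the undifferentiated state of stem cells, was well above the dim limit in both states and differed little. It was at 8.99 and 8.70 in EB_PSC and at 8.12, 8.43 and 8.59 in PSC, 1.38-fold higher (0.47 ± 0.16, limma adjusted p = 0.03). The call for Fzd7 was lost without EB_PSC replicate 1 (0.32, adjusted p = 0.239), without PSC replicate 1 (0.33, adjusted p = 0.122) and without PSC replicate 2 (0.49, adjusted p = 0.0539). Fzd10 gave 6.80 and 7.23 in EB_PSC and 7.19, 7.04 and 6.82 in PSC. Its array ranges overlapped, and its difference had a 95% interval of -0.33 to 0.33.

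Fzd5 and Fzd9 were lower in the embryoid bodies. Fzd5, a canonical receptor needed in the yolk sac and placenta, was at 8.23 and 8.43 in EB_PSC and at 9.23, 9.10 and 9.14 in PSC (-0.83 ± 0.13, limma adjusted p = 0.000115). Its arrays were clearly separated. Fzd9 was at 5.83 and 5.74 in EB_PSC and at 6.31, 6.51 and 6.37 in PSC (-0.61 ± 0.13, limma adjusted p = 0.00141).

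**Figure D2:**
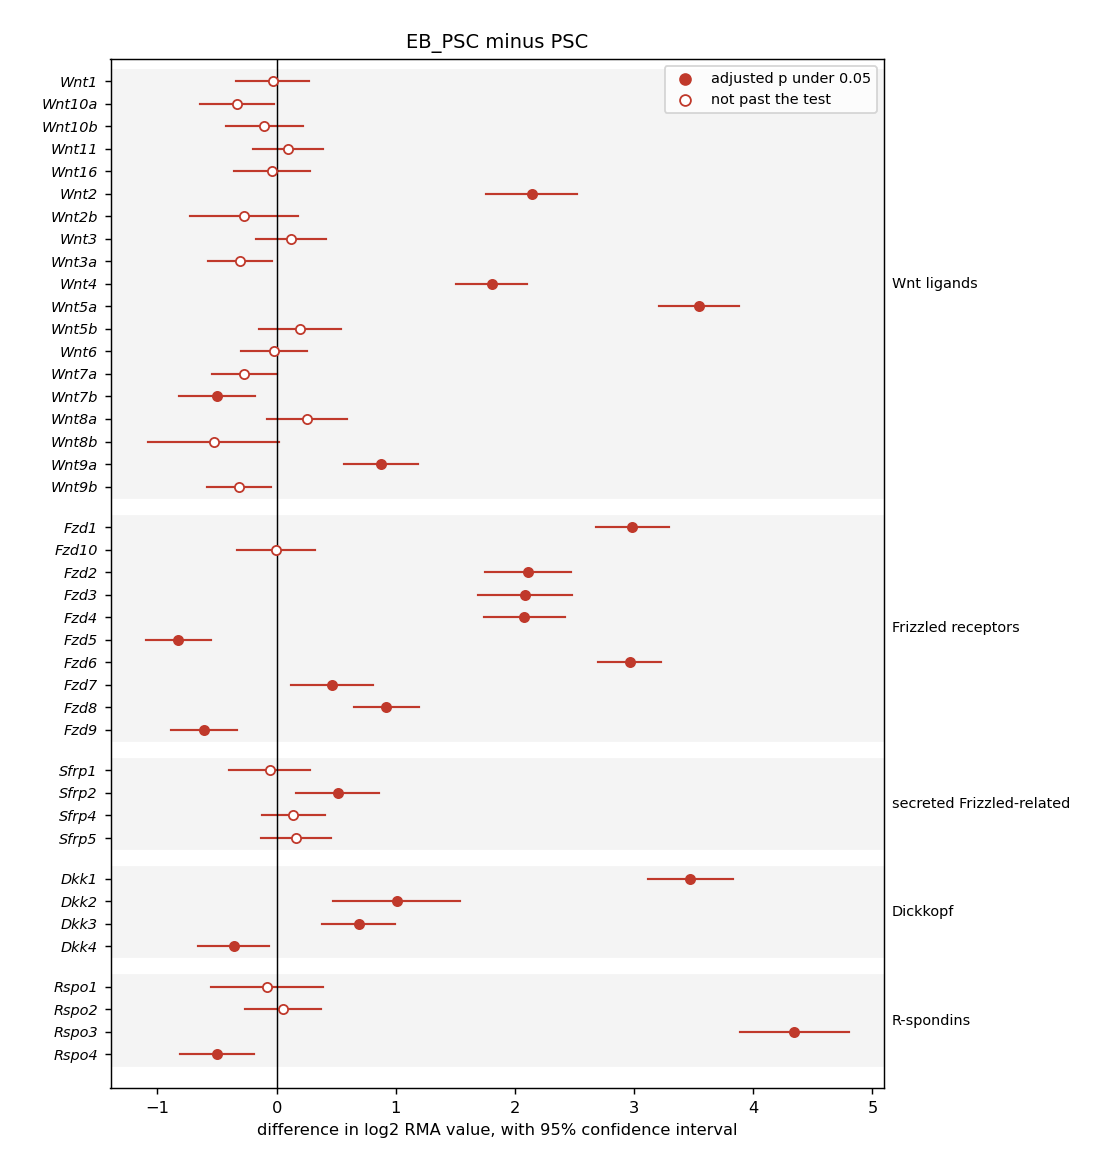
Difference of each member between EB_PSC (n = 2) and PSC (n = 3) in log2 RMA units, with its 95% confidence interval from limma as a bar, filled where the adjusted p was under 0.05 and open where it was not. Filled points to the right are 4 ligands, 7 Frizzled receptors, Sfrp2, 3 Dkk genes and Rspo3, and filled points to the left are Wnt7b, Fzd5, Fzd9, Dkk4 and Rspo4.

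The secreted Frizzled-related proteins, which carry a Frizzled-like domain that binds Wnt, were above the dim limit in all groups. Between embryoid bodies and PSC 1 of 4 was called (25%, beside 43.9% of all genes). Sfrp2 was at 7.15 and 7.39 in EB_PSC against 7.003, 6.67 and 6.59 in PSC, 1.43-fold higher (0.51 ± 0.16, limma adjusted p = 0.0188). The arrays were separated by a small gap, and the Sfrp2 call was lost without EB_PSC replicate 2 (0.39, adjusted p = 0.154), without PSC replicate 2 (0.47, adjusted p = 0.0631) and without PSC replicate 3 (0.43, adjusted p = 0.073). Sfrp1 was at 8.11 and 8.20 in EB_PSC and at 8.05, 8.29 and 8.29 in PSC, and Sfrp5 at 6.44 and 6.72 in EB_PSC and at 6.39, 6.54 and 6.33 in PSC. Both overlapped between the groups on these probe sets.

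The 4 Dickkopf genes were all called, 3 higher (75%, all genes 18.8%) and 1 lower (25%, all genes 25.2%). Dkk1, the best studied blocker of the Lrp co-receptors and itself a target of canonical signalling, was at 8.49 and 7.89 in EB_PSC and at 4.79, 4.79 and 4.57 in PSC. PSC lay below the dim limit and both embryoid body arrays far above it, a difference of at least 3.47 ± 0.17 (limma adjusted p = 1.65e-09). Dkk3, a divergent relative without a settled action on Lrp, was at 7.30 and 6.92 in EB_PSC and at 6.38, 6.40 and 6.48 in PSC, 1.61-fold higher (0.69 ± 0.14, limma adjusted p = 0.00133).

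Dkk2, which also binds Lrp co-receptors, was dim in both states, at 5.13 and 4.002 in EB_PSC and 3.54, 3.48 and 3.66 in PSC (at least 1.006 ± 0.25, limma adjusted p = 0.00434). The embryoid body arrays were far apart for Dkk2: without EB_PSC replicate 1 the difference was 0.44 (adjusted p = 0.0813) and without EB_PSC replicate 2 it was 1.57. Dkk4, dim as well, was at 3.65 and 3.71 in EB_PSC and at 4.08, 4.20 and 3.84 in PSC (a fall of at least 0.36, -0.36 ± 0.14, limma adjusted p = 0.0494). The Dkk4 call was at the edge of the threshold and was lost under 9 alternatives, with adjusted p-values from 0.0523 to 0.186.

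The R-spondins held the largest difference among the 41 members in EB_PSC against PSC. Of the 4, 1 was called higher and 1 lower (25% each, all genes 18.8% and 25.2%). Rspo3, a potentiator of Wnt signalling needed for placental vessels in the mouse, was at 9.02 and 8.06 in EB_PSC and at 4.24, 4.19 and 4.14 in PSC. The PSC arrays lay together well below the dim limit, and the difference was at least 4.34 ± 0.21 (limma adjusted p = 2.06e-09). Rspo4, a gene of nail formation, was dim in both states and called lower, at 3.61 and 3.96 in EB_PSC against 4.16, 4.24 and 4.46 in PSC (a fall of at least 0.50, -0.50 ± 0.14, limma adjusted p = 0.011). Without EB_PSC replicate 1 the Rspo4 difference was -0.33 (adjusted p = 0.152).

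The other R-spondins did not pass the test. Rspo1, the R-spondin of ovary development, lay on both sides of the PSC arrays, with 5.79 and 4.88 in EB_PSC and 5.45, 5.38 and 5.41 in PSC. Rspo2 differed by 0.05 ± 0.15. The embryoid body arrays were within 0.5 log2 units of each other for 37 of the 41 members, and EB_PSC replicate 1 was higher by more than that for Dkk1, Dkk2, Rspo1 and Rspo3. Mean cardiomyocyte and blood marker levels differed between these arrays as well, at 7.98 and 7.77 in EB_PSC replicate 1 and at 8.66 and 8.66 in EB_PSC replicate 2. In replicates 1 and 2, fibroblast markers were at 8.71 and 9.22, visceral endoderm at 7.74 and 8.07, endothelium at 6.30 and 6.56. Smooth muscle and epicardium markers were at 7.50 and 7.57. Pluripotency markers (9.63 and 9.50) and neural markers (6.07 and 6.035) went the other way. The part of any cell type in the spread of Dkk1, Dkk2, Rspo1 and Rspo3 was not tested.

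Many members have more than 1 probe set, and these did not always give the same answer. The 41 members hold 79 probe sets, with 17 members on a single one. Of the 21 members called between EB_PSC and PSC, 15 had further probe sets, 24 in all, of which 13 gave the same call, 10 none and 1 the opposite call. These p-values are limma's, adjusted over the 34958 probe sets that name a single gene. The second Dkk1 probe set gave 2.65 (adjusted p = 3.49e-06), the second Wnt4 probe set 2.26 (adjusted p = 9.84e-06), and the other Fzd2 probe sets 2.23 (adjusted p = 3.47e-06) and 3.70 (adjusted p = 2.2e-10). For these genes every probe set was called higher in EB_PSC.

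The largest difference, that of Rspo3, rested on 1 of its 2 probe sets: the other was dim in both groups, with means of 4.14 in EB_PSC and 4.04 in PSC, and gave 0.10 (adjusted p = 0.627). For Wnt5a the further probe sets gave 2.21 (adjusted p = 3.39e-06), 0.74 (adjusted p = 0.000953) and, the opposite call, -0.41 (adjusted p = 0.0288), the last with means of 3.97 in EB_PSC and 4.38 in PSC. Further Fzd6 probe sets were dim in EB_PSC and PSC and gave 0.40 (adjusted p = 0.0979) and 0.12 (adjusted p = 0.484). Of 5 further Fzd3 probe sets 2 were called higher, at 0.77 and 0.66, and 3 were not called.

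Averaging all probe sets of a gene shrank several differences by more than 1.5 times while keeping their call, to 2.22 for Rspo3, 1.79 for Fzd1, 1.52 for Wnt5a, 1.16 for Fzd6, 1.12 for Fzd4, 0.62 for Fzd3 and 0.47 for Wnt9a. It ended the call of Fzd7 (0.17, adjusted p = 0.301) and gave one to Wnt5b (0.56, adjusted p = 0.00484), whose second probe set rose by 0.92 (adjusted p = 0.000254). Sfrp1 had 5 probe sets, of which 2 were called lower in EB_PSC (-0.79, adjusted p = 0.000564, and -0.45, adjusted p = 0.0372), while the one used did not pass. Fzd5 was lower on both of its probe sets, by -0.83 and -1.62.

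**Figure D3:**
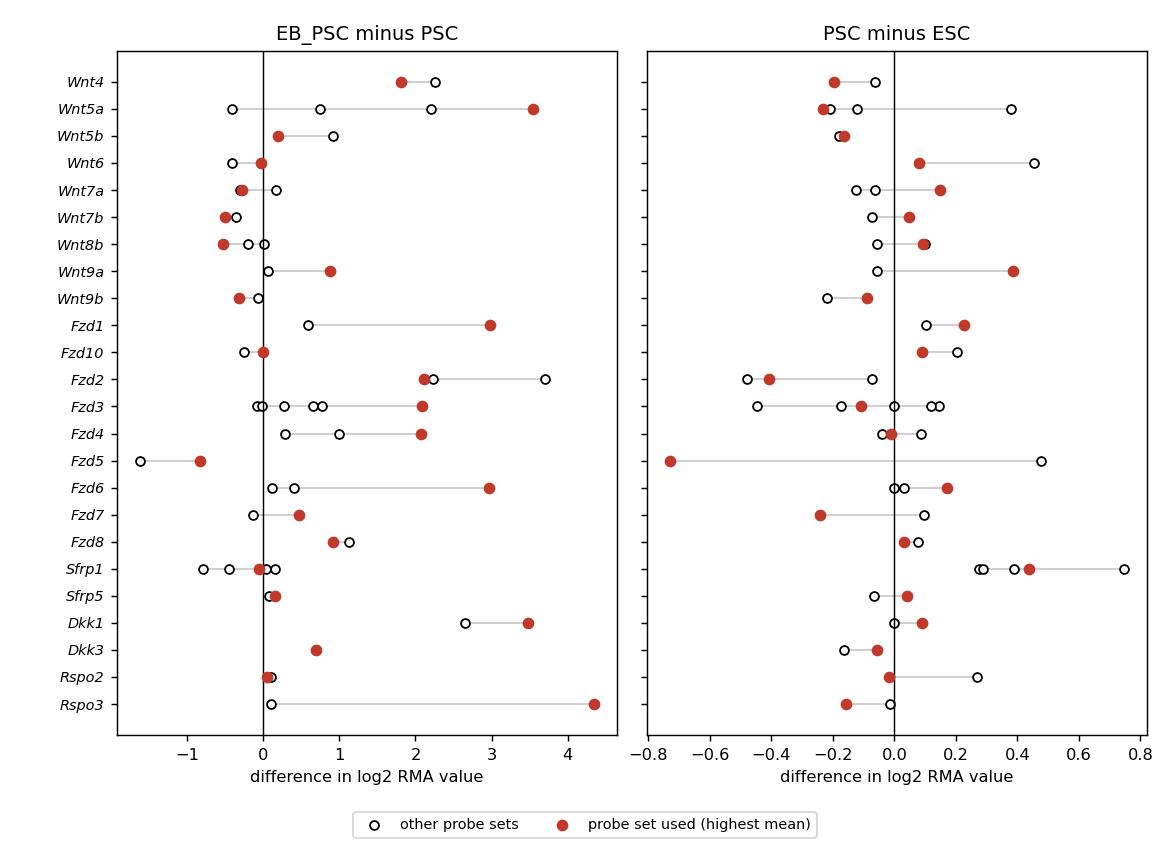
Difference on every probe set of the 24 members that have several, in log2 RMA units, for EB_PSC minus PSC on the left and PSC minus ESC on the right, each row a gene, with the probe set of highest mean filled and the others open. On the left the used probe set of Rspo3 (4.34) stands far from the other (0.10) while those of Dkk3 coincide, and on the right the probe sets of Fzd5 lie on opposite sides of 0 (-0.73 and 0.48) while all those of Sfrp1 lie above it.

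The genes that process and release Wnt ligands, and further secreted regulators, were examined through a list of 14. Against PSC, 7 of 14 were called higher in EB_PSC (50%, all genes 18.8%), 1 lower (7.14%, all genes 25.2%) and 6 did not pass. Wls, the carrier that takes every Wnt to the cell surface, was at 10.8 and 10.6 in EB_PSC against 5.26, 4.94 and 5.41 in PSC, from dim in PSC to far above the limit (at least 5.52 ± 0.17, limma adjusted p = 2.61e-11). Porcn, the enzyme that attaches the lipid to Wnt, moved in the other direction, at 6.27 and 6.18 in EB_PSC against 7.67, 7.83 and 7.80 in PSC (-1.54 ± 0.15, limma adjusted p = 1.63e-06). The next largest rises of the list were in Shisa2, whose relatives hold Frizzled back inside the cell (at least 2.45 ± 0.18), in Tpbg, a membrane inhibitor of the pathway (at least 2.17 ± 0.12), and in Frzb, another secreted Frizzled-related protein (at least 1.99 ± 0.14), with limma adjusted p-values of 1.55e-07, 6.02e-09 and 1.13e-07. All 3 were dim in PSC.

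Co-receptors, other Wnt receptors and planar polarity proteins formed a list of 22, of which 21 were measured (Kremen2 was not analysed here). EB_PSC was called higher in 7 and lower in 7 (33.3% each, beside 18.8% and 25.2% of all genes). Ror1, a receptor of Wnt5a, was at 8.11 and 7.53 in EB_PSC against 3.97, 4.31 and 4.34 in PSC (at least 3.61 ± 0.18, limma adjusted p = 2.14e-09). The planar polarity genes went in both directions, with Prickle1 5.93-fold higher (2.57 ± 0.14, limma adjusted p = 4.4e-09) and Prickle2 higher by at least 2.29 ± 0.15 (3.49e-08), while Celsr1 was lower by at least 1.94 (-1.94 ± 0.20, 3.21e-06), Celsr2 by 0.73 (-0.73 ± 0.14, 0.000727) and Celsr3 by 0.69 (-0.69 ± 0.15, 0.00151). Gpc3, a glypican that binds Wnt at the cell surface, was 3.62-fold higher (1.85 ± 0.12, limma adjusted p = 4.27e-08). The canonical co-receptor Lrp6 was called lower (-0.39 ± 0.14, limma adjusted p = 0.0355) and Lrp5 did not pass, and both are named for their role, after their values were seen. Vangl1, another polarity gene, was lower by 0.61 (-0.61 ± 0.19, limma adjusted p = 0.0176).

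Inside the cell the calls went in both directions. Of 26 measured genes of cytoplasmic and nuclear transduction (Tcf7 was not analysed here) 4 were called higher in EB_PSC (15.4%, all genes 18.8%), 8 lower (30.8%, all genes 25.2%) and 14 did not pass. These shares are near those of all genes, whose own split turns with the scaling as given above. The falls were led by Dvl2, which relays the signal from Frizzled (-1.68 ± 0.19, limma adjusted p = 6.91e-06), the corepressor Tle3 (-1.54 ± 0.16, 2.87e-06), Btrc, which marks beta-catenin for degradation (-1.17 ± 0.18, 0.000117), and the kinase Csnk1e (-0.72 ± 0.22, 0.0152). The 4 rises were Gsk3b, a kinase of the beta-catenin destruction complex (1.196 ± 0.23, limma adjusted p = 0.000774), the transcription factors Lef1 (0.96 ± 0.12, 2.79e-05) and Tcf7l2 (0.81 ± 0.15, 0.000468), and Amer1, a regulator of the same complex (0.94 ± 0.16, 0.000297).

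Known transcriptional targets numbered 20 measured of 22 listed (Tcf7 and T were not analysed here). In EB_PSC 9 were called higher (45%, all genes 18.8%), 2 lower (10%, all genes 25.2%) and 9 did not pass. Tnfrsf19, a receptor of the tumour necrosis factor family, rose by at least 2.61 ± 0.12 (limma adjusted p = 1.64e-09), Msx2, a homeobox gene, by at least 2.46 ± 0.19 (2.31e-07), Myc by 1.73 ± 0.21 (1.79e-05) and Isl1, a marker of heart progenitors among other cells, by at least 1.64 ± 0.17 (3.44e-06). The targets called lower were Ascl2 and Rnf43, Ascl2 by 1.25 (-1.25 ± 0.17, limma adjusted p = 4.74e-05) and Rnf43, dim in EB_PSC and PSC, by at least 0.35 (-0.35 ± 0.12, 0.0272). Axin2, the target most often used as a readout of canonical signalling, did not pass the test (-0.24, adjusted p = 0.169), and it too is named after its value was seen. These 4 lists share the measured genes Axin2, Lef1, Lgr5, Rnf43, Znrf3 and Notum, and Tcf7, not analysed here, also stands in 2 of them.

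**Figure D4:**
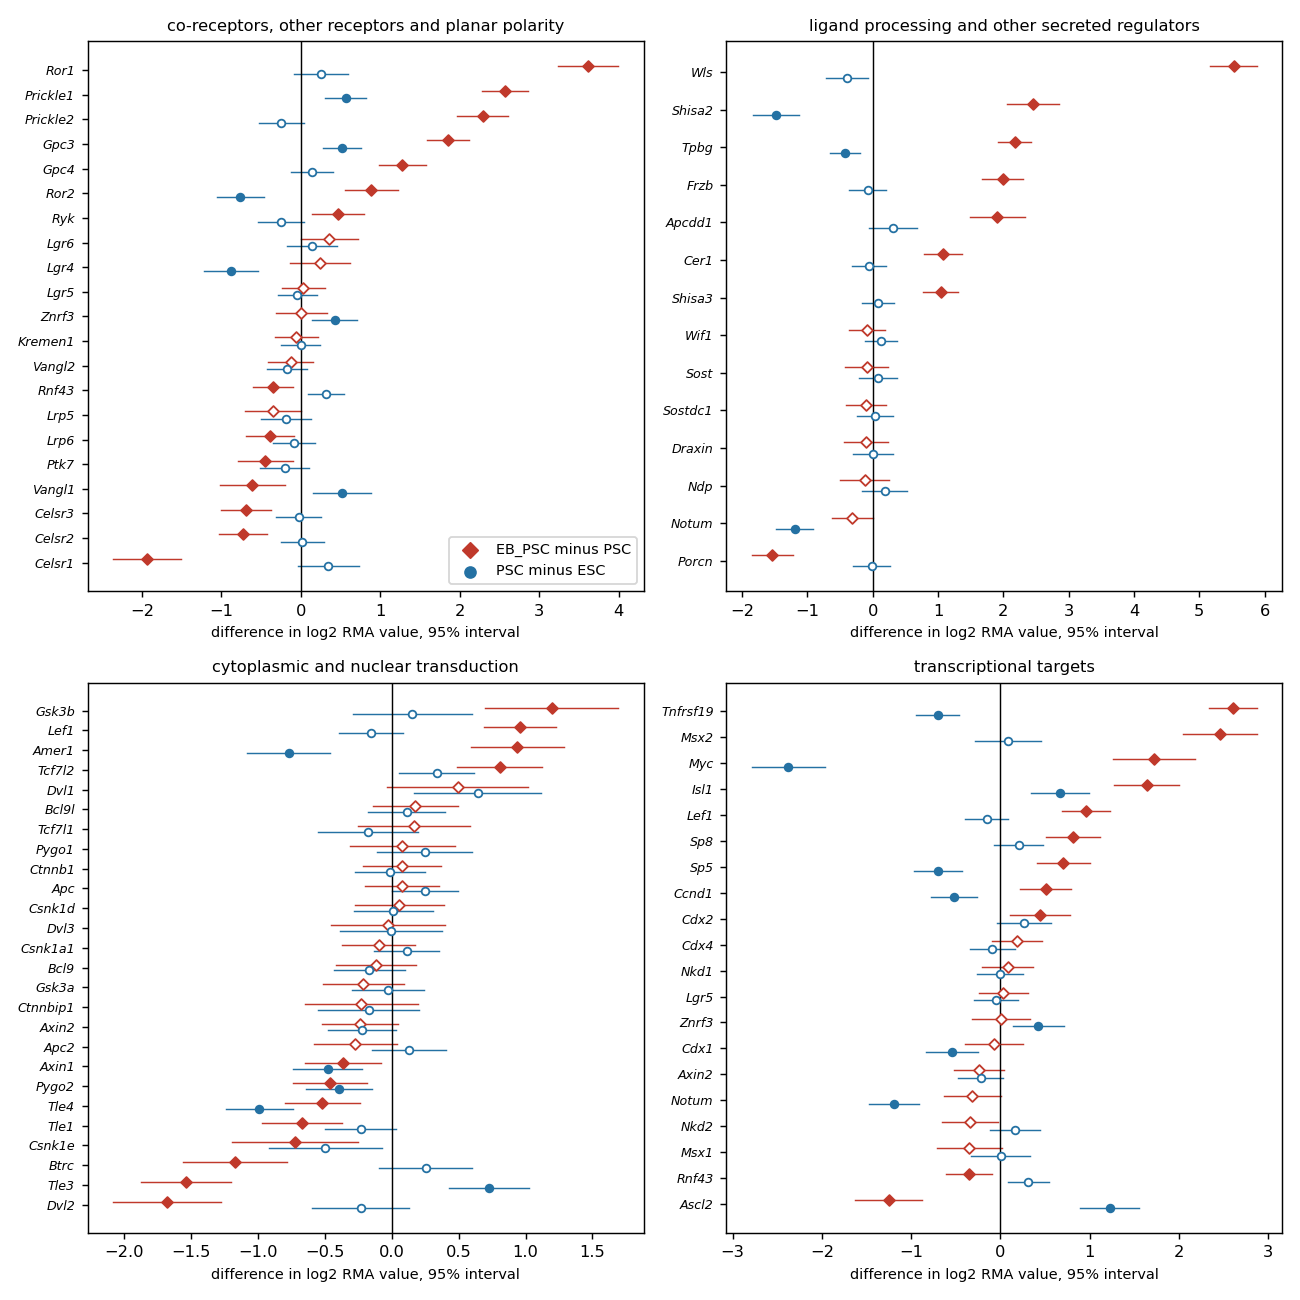
Differences in log2 RMA units with 95% confidence intervals for the other genes of the pathway in 4 lists, EB_PSC minus PSC as diamonds and PSC minus ESC as circles, filled where the adjusted p was under 0.05 and open where it was not. Wls (5.52) and Ror1 (3.61) stand out to the right for EB_PSC minus PSC, Celsr1 (-1.94) and Dvl2 (-1.68) to the left, and Myc (-2.38) is farthest to the left for PSC minus ESC.

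Setting PSC against ESC asks whether parthenogenetic stem cells carry the same Wnt components as a line from fertilised embryos. Few members were called, a smaller share than of all genes. Of 41 members 1 was called higher in PSC (2.44%, where 9.07% of all genes were), 2 were called lower (4.88%, where 11.7% of all genes were) and 38 did not pass the test. In either direction this is 7.32% of members, beside 20.8% of all genes. Of the 41 members 20 were dim in both PSC and ESC, as were 6302 of all 18194 genes. RMA compresses differences of such genes, and the part of this in the smaller share was not tested. Arrays did not overlap for 5 members (12.2%, beside 36.5% of all genes), with PSC above in 3 (all genes 17.4%) and below in 2 (all genes 19.1%). All 41 differences lay between -0.73 and 0.44, with a median of 0.05 beside 0.01 over all genes. Their 95% intervals show what a missed threshold leaves possible: for Fzd2 (-0.41 ± 0.15, limma adjusted p = 0.0713) the interval ran from -0.73 to -0.09, and for Wnt9a (0.38 ± 0.13, adjusted p = 0.051) from 0.11 to 0.66.

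Fzd5, the receptor that was also lower in embryoid bodies than in PSC, was at 9.23, 9.10 and 9.14 in PSC and at 9.84, 9.99 and 9.83 in ESC. PSC lay below ESC on every array (-0.73 ± 0.11, limma adjusted p = 0.000525). The second Fzd5 probe set went the other way, with means of 8.11 in PSC and 7.64 in ESC (0.48, adjusted p = 0.0233), and the mean of both Fzd5 probe sets did not pass (-0.13, adjusted p = 0.393). The probe sets of Fzd5 thus gave opposite directions in PSC against ESC.

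Sfrp4 was lower in PSC, and Sfrp1 was higher. Sfrp4, which has 1 probe set, was at 6.49, 6.51 and 6.41 in PSC against 7.06, 7.24 and 7.08 in ESC (-0.66 ± 0.11, limma adjusted p = 0.000892). The groups were separated by more than the range within either. Sfrp1 was at 8.05, 8.29 and 8.29 in PSC against 8.04, 7.51 and 7.78 in ESC, 1.35-fold higher (0.44 ± 0.14, limma adjusted p = 0.0416). The PSC and ESC arrays of Sfrp1 nearly touched, and the call was lost when any of 5 of the 6 PSC and ESC arrays was left out (adjusted p 0.0516 to 0.14); only without ESC replicate 1 was it kept. All 5 Sfrp1 probe sets were higher in PSC, by 0.28 to 0.75, and 1 of them passed the test over probe sets (0.75, adjusted p = 0.00138).

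Fibroblast markers moved together with this comparison. Of 10 markers of fibroblasts and feeder cells 7 were called lower in PSC and 0 higher, and their mean level was 5.68 to 5.87 on PSC arrays and 6.54 to 6.85 on ESC arrays, with Lum and Twist2 dim in both groups. Their part in the differences of Sfrp4, Sfrp1 and Fzd5 was not tested. The strain is named for PSC and not for ESC, and feeders are named for ESC and not for PSC. The sources used here therefore do not set strain or culture conditions of PSC beside those of ESC. Any difference in strain, sex or culture conditions cannot be told apart from the cell type.

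No Wnt ligand, Dkk or Rspo gene was called between PSC and ESC by limma on the probe sets used. Wnt9a passed under 4 alternatives, with adjusted p-values down to 0.0404, and further probe sets of Wnt5a (0.38, adjusted p = 0.0478) and Wnt6 (0.45, adjusted p = 0.0389) were called higher in PSC. Wnt5a, Dkk1 and Rspo3, the genes of largest difference in EB_PSC against PSC, were dim in both kinds of stem cell. Wnt5a was at 4.12, 3.74 and 4.10 in PSC and at 4.22, 4.42 and 4.02 in ESC, Dkk1 at 4.79, 4.79 and 4.57 in PSC and 4.54, 4.66 and 4.69 in ESC, and Rspo3 at 4.24, 4.19 and 4.14 in PSC and 4.20, 4.38 and 4.46 in ESC. The arrays of both groups overlapped for each of the 3. Fzd7, at 8.12, 8.43 and 8.59 in PSC, was at 8.69, 8.71 and 8.46 in ESC (-0.24 ± 0.14, 95% interval -0.55 to 0.07), and Wnt7b, at 7.82, 7.72 and 7.71 in PSC, was at 7.65, 7.61 and 7.84 in ESC (0.05 ± 0.13, 95% interval -0.24 to 0.33).

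**Figure D5:**
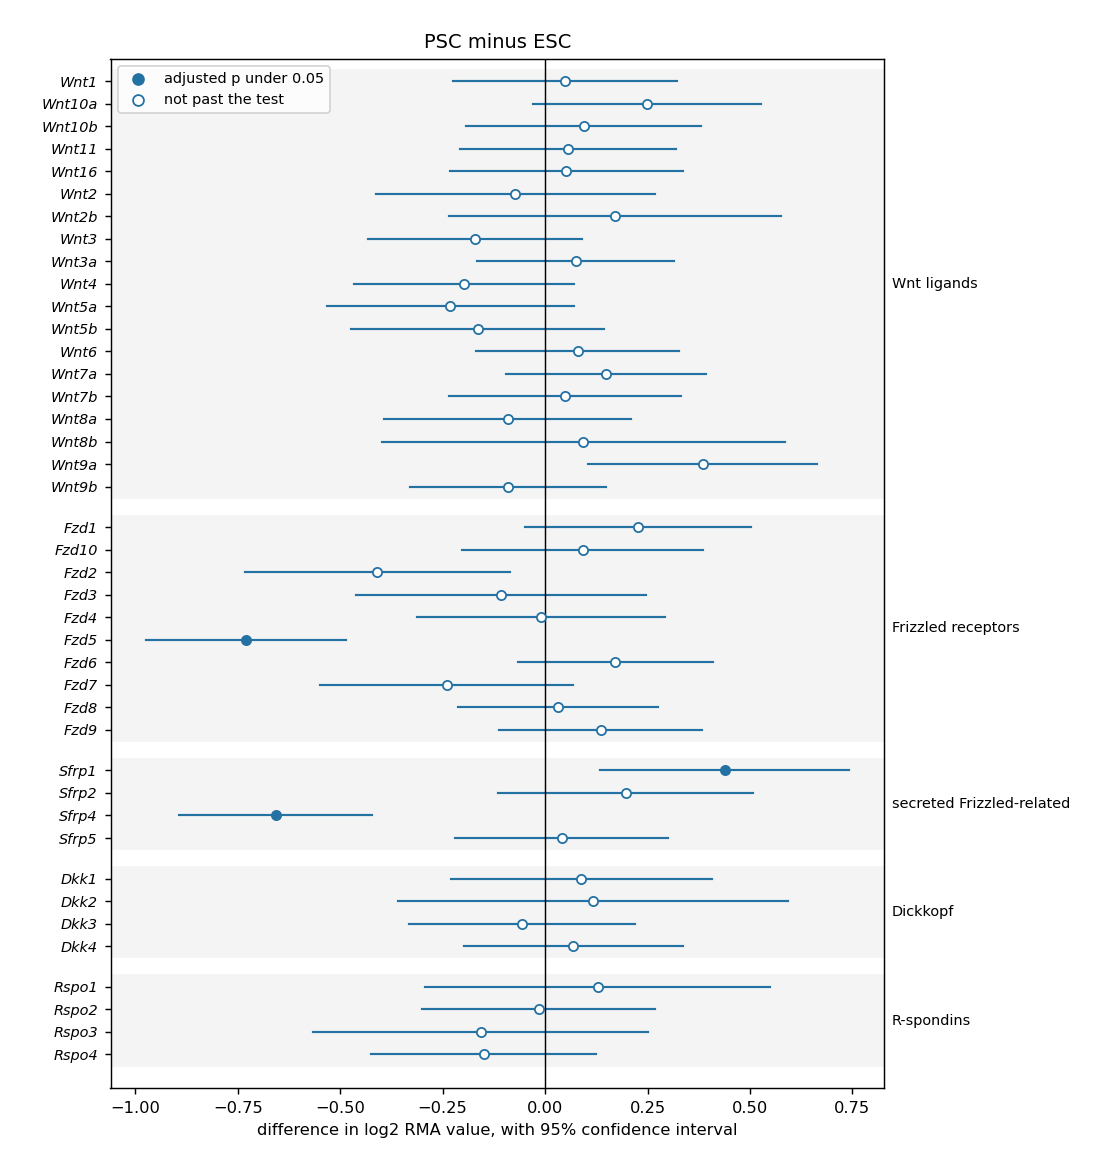
Difference of each member between PSC (n = 3) and ESC (n = 3) in log2 RMA units, with its 95% confidence interval from limma as a bar, filled where the adjusted p was under 0.05 and open where it was not. The filled points are Fzd5 (-0.73) and Sfrp4 (-0.66) to the left and Sfrp1 (0.44) to the right, and the axis spans a much narrower range than that of the embryoid body comparison.

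Other genes of the pathway were called between PSC and ESC in 21.4% of ligand processing and secreted regulators, 28.6% of co-receptors and polarity genes, 19.2% of transduction genes and 45% of targets, beside 20.8% of all genes. The difference of these shares from that of the members was not tested. In the list of ligand processing and secreted regulators 0 of 14 were called higher and 3 lower in PSC by limma, namely Shisa2 (-1.48 ± 0.16, limma adjusted p = 4.04e-05), Notum, a secreted enzyme that removes the lipid from Wnt (-1.19 ± 0.13, 3.91e-05), and Tpbg (-0.42 ± 0.11, 0.0125). Shisa2 and Tpbg were dim in PSC, so the sizes of their differences are lower bounds. Among the co-receptors and polarity genes 4 of 21 were higher, Prickle1 (0.56 ± 0.12, limma adjusted p = 0.00495), Gpc3 (0.52 ± 0.11, 0.00437), Vangl1 (0.52 ± 0.17, 0.0427) and Znrf3 (0.42 ± 0.13, 0.0374), and 2 lower, Lgr4, a receptor of R-spondins (-0.88 ± 0.16, 0.00141), and Ror2 (-0.76 ± 0.14, 0.00156). In cytoplasmic and nuclear transduction 1 of 26 was higher, the corepressor Tle3 (0.73 ± 0.14, limma adjusted p = 0.00237), and 4 were lower, its relative Tle4 (-0.99 ± 0.12, 7.05e-05), Amer1 (-0.77 ± 0.14, 0.00201), the scaffold Axin1 (-0.48 ± 0.12, 0.0118) and Pygo2, a partner of beta-catenin in the nucleus (-0.39 ± 0.11, 0.0267). Of 20 targets 3 were higher, Ascl2 (1.23 ± 0.15, limma adjusted p = 0.000115), Isl1, dim in both groups (at least 0.67 ± 0.15, 0.00672), and Znrf3, already given, and 6 lower. The largest falls were in Myc (-2.38 ± 0.19, limma adjusted p = 2.6e-06), Notum, already given, Sp5, a transcription factor (-0.70 ± 0.12, 0.00134), and Tnfrsf19, dim in PSC (a fall of at least 0.70, -0.70 ± 0.11, 0.000603).

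Embryoid bodies set against ESC give a comparison that uses the same EB_PSC arrays, so it does not add independent weight to the differences from PSC. Of the 41 members 15 were called higher in EB_PSC than in ESC (36.6%, all genes 19.3%) and 6 lower (14.6%, all genes 25.6%), which is 51.2% of members beside 44.9% of all genes. Arrays did not overlap for 25 members (61.0%, beside 61.1% of all genes), 16 above (all genes 25%) and 9 below (all genes 36.1%). The differences from ESC were at least 4.19 ± 0.21 for Rspo3, at least 3.56 ± 0.17 for Dkk1, at least 3.31 ± 0.16 for Wnt5a, at least 3.21 ± 0.14 for Fzd1 and 3.13 ± 0.12 for Fzd6, with limma adjusted p-values of 2.82e-09, 1.18e-09, 1.35e-09, 8.08e-10 and 2.83e-10. Fzd5 was 2.94-fold lower in EB_PSC than in ESC (-1.56 ± 0.13, limma adjusted p = 2.95e-07), and on this receptor both probe sets were called lower. Sfrp4 was lower in EB_PSC than in ESC as well, at 6.65 and 6.56 against 7.06, 7.24 and 7.08 (-0.52 ± 0.12, limma adjusted p = 0.0031), and Fzd7 did not pass (0.23 ± 0.16, adjusted p = 0.292).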

How the data were processed

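The authors deposited log2 values made with RMA, per the submitters' processing notes, in Bioconductor, per the labels. The sources used here give no versions and do not say whether the arrays were normalized together. The values ran from 2.56 to 14.9 and were not normalized again. Of 45101 probe sets 34958 name 1 gene in the platform annotation, 932 several and 9211 none; single-gene probe sets gave 18194 genes, each on its probe set of highest mean. Groups were compared with limma 3.58.1 (R 4.3.3; functions lmFit, contrasts.fit and eBayes) on all 8 arrays with group as the only term, 5 residual and 8.07 prior degrees of freedom, two-sided, with Benjamini-Hochberg adjustment over all genes. The number of arrays limits the precision. The code was tested on simulated data. Members were chosen by gene symbol alone and lists from textbook knowledge, at a time when earlier results of these data were known. Array values are given for a list of 23 members and for up to 5 called members per class and direction whose arrays do not overlap; other pathway genes are named by size, up to 4 per list and direction. Figures and promoter searches used Python 3.11.15, pandas 2.3.3 and Matplotlib 3.10.9. Kremen2, Tcf7, T and the marker Trf were not analysed here. Alternatives were repeated quantile normalization, cyclic loess, a dim filter, the mean of all probe sets, no cross-hybridising probe sets, compared groups alone, a trended robust prior, array weights, a replicate block and each array left out.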

Additional observations from a re-analysis of the deposited data

How the results depend on the processing

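Of 21 members called in EB_PSC against PSC 15 kept their call and direction under every alternative run, and the 6 that lost it somewhere were Dkk2, Dkk4, Fzd7, Rspo4, Sfrp2 and Wnt7b. In EB_PSC against ESC 18 of 21 kept it, and in PSC against ESC 1 of 3 did, Sfrp4. No alternative reversed a called member. Of the members not called in EB_PSC against PSC, Wnt3a, Wnt5b, Wnt8b and Wnt9b passed under some alternative that kept both EB_PSC arrays. Without EB_PSC replicate 1 the difference was -0.54 for Rspo1 and 0.50 for Wnt8a, beside -0.08 and 0.26 in the main fit. The count called lower in EB_PSC against PSC was 3 after cyclic loess instead of 5 and 3 to 5 with an array left out (3 without EB_PSC replicate 1); the count called higher was 14 to 15. In PSC against ESC the count called higher was 2 with the dim filter, 2 with the compared groups alone and 0 with the replicate block, and 0 to 1 with an array left out; the count called lower was 1 with the mean of all probe sets and 2 to 3 with an array left out. In EB_PSC against ESC the counts with an array left out were 15 to 16 higher and 4 to 6 lower, and over the other alternatives 14 (dim filter) to 17 (cyclic loess) higher and 5 to 7 (array weights) lower. Whether replicate numbers pair the samples cannot be decided from so few arrays, since deviations from a group mean depend on each other. Same-numbered arrays had deviations correlated at -0.14 and 0.04 for EB_PSC and PSC. These values were -0.25, -0.07 and -0.04 for PSC and ESC, and 0.16 and 0.22 for EB_PSC and ESC. Differently numbered arrays gave -0.18 to 0.18, -0.13 to 0.21 and -0.22 to 0.10 in the same order of comparisons. With the replicate block the member counts were 15 higher and 5 lower in EB_PSC against PSC, and Fzd7 was no longer called (0.48, adjusted p = 0.0511). The 5 lower were not the same genes: Dkk4 was no longer called (-0.39, limma adjusted p = 0.0642), and Wnt8b was called lower. Over all genes 3782 were called in PSC against ESC, 5693 with array weights and 2490 without PSC replicate 1. The split of 1651 higher and 2131 lower became 2026 and 1870 after repeated quantile normalization, and that of EB_PSC against ESC, 3513 higher and 4652 lower, became 4435 and 3626 after cyclic loess. The causes were not tested. The dim filter left 28 members tested, and without probe sets marked for cross-hybridisation Wnt3 was not tested. With 2 arrays in EB_PSC, a fit without either assumes that the remaining one varies like the other groups.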
